A study of Rattus norvegicus with 6 samples.

Results

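Voltage-gated sodium channels were examined in the lumbar spinal cord of rats with bone cancer pain (BCP). The members were the 7 alpha subunit genes Scn1a, Scn2a, Scn3a, Scn8a, Scn9a, Scn10a and Scn11a and the 2 beta subunit genes Scn2b and Scn4b, chosen by name, and all 9 were found among the 30957 genes of the deposited table. RNA came from adult female Wistar rats on day 14 after surgery. In BCP rats living Walker 256 cells, a rat mammary carcinoma line, had been placed in the medullary cavity of the left tibia, whereas the sham operation used cells of this line killed by heat, so that surgery and foreign cell material were common to both groups. Each group had 3 libraries, made from lumbar enlargement tissue on the operated side, without meninges. Cell bodies of sensory neurons lie outside this tissue, in the dorsal root ganglia. The labels number the libraries as replicates without stating that each came from its own rat, so p-values measure the spread between these libraries, which may be technical. Counts on genes totaled 11779485 to 15004290 per library. The markers of the labelled tissue were present in every library, among them Slc6a5 of glycinergic neurons (523 to 636 CPM, that is, normalized counts on a library total common to all samples) and Chat of cholinergic neurons (51.6 to 77.4 CPM).

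Sodium channels open when a neuron is depolarized and carry the inward current of the action potential. The alpha subunit forms the pore, and each alpha subunit gene encodes a channel with its own gating and its own place in the neuron. Beta subunits are small membrane proteins that bind the alpha subunit and change its gating and surface level. In nociception the channels of primary sensory neurons are best known, whereas neurons within the spinal cord depend mainly on the channels of Scn1a, Scn2a, Scn3a and Scn8a.

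Of the 9 genes, 7 had enough counts for the test across genes. Scn8a, Scn1a, Scn4b and Scn2b were lower in BCP rats, Scn9a was higher, and Scn2a and Scn3a did not pass the threshold. The differences were small: on the log2 scale they ranged from -0.31 (Scn2b) to 0.33 (Scn9a), and none reached the 2-fold change that the study required in addition. Thus 4 of 7 tested members (57.1%) were lower, against 12.1% of all 14908 tested genes, and 1 of 7 (14.3%) was higher, against 15.8% of all tested genes (27.9% in either direction). Shares of called genes, here and below, were not matched for expression level. The 4 genes that fell stood above 86.7% to 96.3% of tested genes in level per transcript length. Small differences are harder to call in genes with few counts. The median log2FC of the 7 was -0.15, and that of all tested genes was -0.01. A gene was called here when its p-value in edgeR's quasi-likelihood test, adjusted over all tested genes by the Benjamini-Hochberg method, was under 0.05. With the 2-fold requirement 6.35% of tested genes were higher and 0.107% lower. The falls depended on the scale. When libraries were scaled to a list of 12 neuronal markers instead of all genes, none of the 7 fell. The values of Scn1a, Scn2a and Scn4b turned above 0, and Scn9a and Scn3a rose. On that scale 4572 of all 14908 tested genes were higher and 212 lower.

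**Figure D1:**
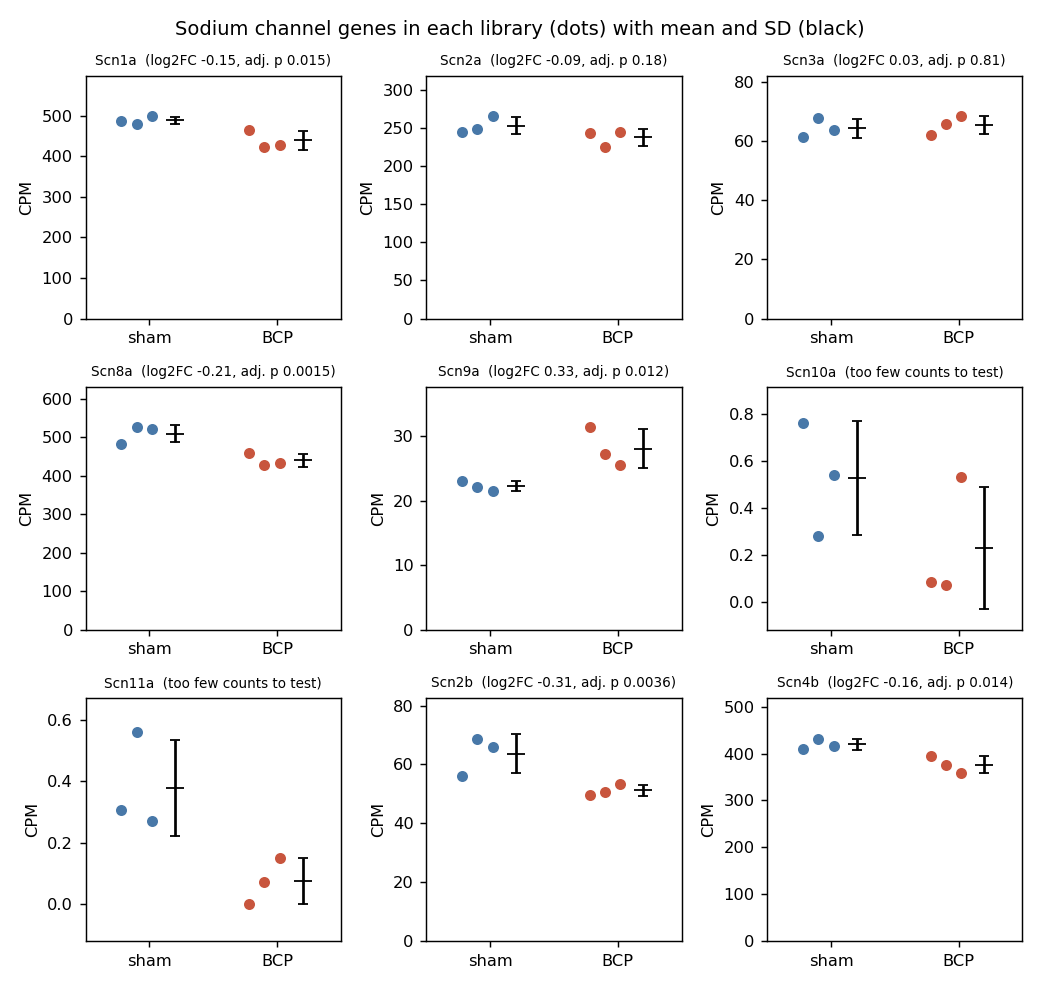
Normalized counts (CPM, linear axes) of each sodium channel gene in the 3 sham and 3 BCP libraries (dots), with mean and SD in black. BCP libraries lay below all sham libraries for Scn1a, Scn8a, Scn2b, Scn4b, Scn2a and Scn11a, above them for Scn9a, and among them for Scn3a and Scn10a; with libraries scaled to neuronal markers the differences of Scn1a, Scn2a and Scn4b turn above 0.

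Most members lie in clusters. On Rnor_6.0, the build of the deposited table, chromosome 3 holds Scn3a (51532627 to 51643140), Scn2a (51687809 to 51822250), Scn1a (52381975 to 52510507) and Scn9a (52583951 to 52664209) in this order. Scn8a stands alone on chromosome 7 (142575672 to 142684114). On chromosome 8, Scn2b (49418965 to 49427689) and Scn4b (49441106 to 49456279) are neighbours 13.4 kb apart, and Scn10a (128298594 to 128416650) and Scn11a (128450801 to 128521109) are neighbours 34.2 kb apart. The gene that rose, Scn9a, thus lies 73.4 kb from Scn1a, which fell. Coding sequences of the alpha subunits are similar, and how reads with several locations were counted is not stated, so reads could have been divided between these genes.

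Promoter sequences of 8 of the 9 members were found in the RefSeq table (GRCr8), and Scn1a was not in it. Those of the 3 matched genes that fell and of the gene that rose are shown, as the 250 bases before the annotated start, 5′ to 3′ on the strand of the gene. Capitals mark GGGCGG or its reverse complement CCGCCC, the letters of the GC box.
Scn8a (chr7:133860977-133861226, + strand): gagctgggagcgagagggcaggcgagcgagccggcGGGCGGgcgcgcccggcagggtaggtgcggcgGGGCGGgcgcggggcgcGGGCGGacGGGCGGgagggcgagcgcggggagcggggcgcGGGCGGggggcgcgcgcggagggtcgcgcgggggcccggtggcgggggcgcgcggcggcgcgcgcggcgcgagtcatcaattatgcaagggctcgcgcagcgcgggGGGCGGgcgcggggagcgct
Scn2b (chr8:54322133-54322382, + strand): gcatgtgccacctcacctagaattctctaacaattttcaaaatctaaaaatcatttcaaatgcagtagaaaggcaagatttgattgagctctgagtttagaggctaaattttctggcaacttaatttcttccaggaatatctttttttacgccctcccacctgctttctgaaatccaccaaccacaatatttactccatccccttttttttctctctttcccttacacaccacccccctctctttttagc
Scn4b (chr8:54343623-54343872, + strand): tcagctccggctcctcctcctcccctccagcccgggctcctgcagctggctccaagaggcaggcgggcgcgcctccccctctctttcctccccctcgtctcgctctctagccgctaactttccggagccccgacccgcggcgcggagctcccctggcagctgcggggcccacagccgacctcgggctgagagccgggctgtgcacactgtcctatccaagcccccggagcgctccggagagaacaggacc
Scn9a (chr3:71701378-71701627, - strand): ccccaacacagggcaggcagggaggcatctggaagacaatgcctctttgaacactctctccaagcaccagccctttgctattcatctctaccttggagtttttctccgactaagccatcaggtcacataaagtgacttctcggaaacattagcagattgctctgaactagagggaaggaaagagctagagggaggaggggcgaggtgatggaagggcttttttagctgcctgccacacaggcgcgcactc
The genes that fell did not share a base composition in these windows. The Scn8a window had a GC content of 86% with 53 CG dinucleotides and 6 GC box matches, and that of Scn4b had 71.6% with 21 CG dinucleotides and no match. The Scn2b window had 38.8% with 1 CG dinucleotide, and the Scn9a window had 52.4%, close to the median of 51.2% over 33469 promoters. A GC box match occurred in 30.5% of all these windows and, among the 8 members, only in Scn8a. The repressor REST is known to bind a long element in promoters of neuronal genes. A stretch of its left part, CAGCACC, was found in none of the 8 members and in 5.4% of all windows. A stretch of its right part, GGACAG, was found in Scn4b and Scn11a and in 18.2% of all windows. Both strands were searched, and none of the 3 motifs contains another. A match is a description of the letters in these windows and not a binding site. Bases outside these windows were not searched, so a missing match does not show that a gene lacks the element.

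Expression levels per transcript length were compared as FPKM values of the authors. Scn4b had the highest level (93.2 ± 5.06 FPKM, SD over all 6 libraries), above 96.3% of tested genes. Scn2b (55.3 ± 7.20) and Scn8a (51.6 ± 3.90) followed, and their ranges overlapped, with Scn2b above Scn8a in 5 of 6 libraries. Scn1a (37.6 ± 1.98), Scn2a (24.3 ± 1.08), Scn3a (7.75 ± 0.42) and Scn9a (2.38 ± 0.38) came next, each in all 6 libraries below the gene before it and without overlap. Scn10a and Scn11a, at 0.058 and 0.038 FPKM, stood lowest and overlapped with each other.

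**Figure D2:**
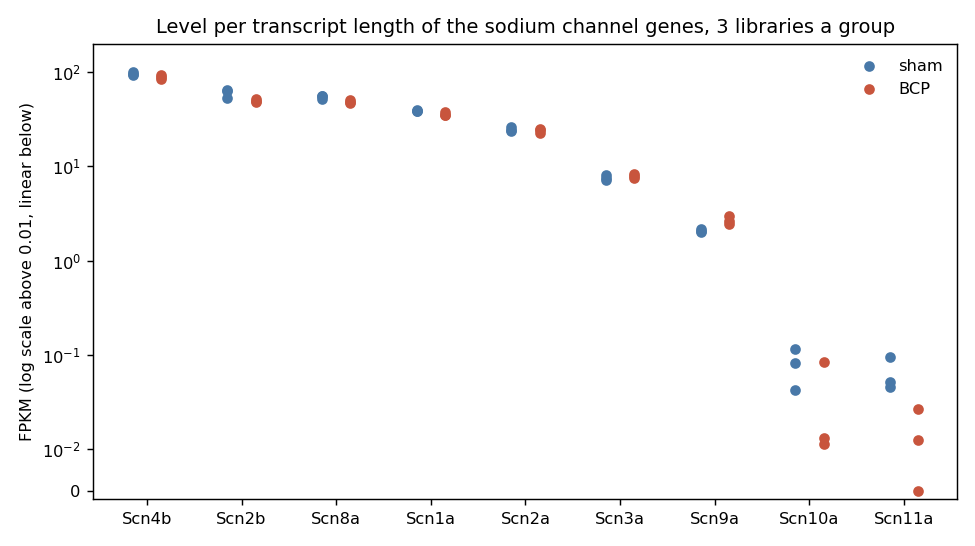
FPKM of the 9 genes in each of 3 sham and 3 BCP libraries, ordered by the mean over all libraries, on an axis that is logarithmic above 0.01 and linear below. Mean levels span from 93.2 FPKM for Scn4b to 0.038 FPKM for Scn11a, and neighbours overlap for Scn2b and Scn8a and for Scn10a and Scn11a.

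Scn8a encodes the main channel of nodes of Ranvier and of the axon initial segment in mature neurons. Its normalized counts were 483, 525 and 520 CPM in sham libraries 1, 2 and 3, and 460, 427 and 432 CPM in BCP libraries 1, 2 and 3. Every BCP library was thus below every sham library, and BCP library 1 and sham library 1 lay closest to the other group. The log2FC was -0.21 (standard error 0.05, 95% interval -0.31 to -0.12; edgeR, adjusted p = 0.00147). The fall remained past the threshold with each library left out in turn.

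Scn1a encodes a channel of fast-firing neurons, among them inhibitory interneurons and motor neurons. Its normalized counts were 486, 481 and 499 CPM in sham and 466, 423 and 428 CPM in BCP libraries. The groups did not overlap, as was the case for 41.4% of all tested genes. The log2FC was -0.15 (standard error 0.05, 95% interval -0.25 to -0.06; edgeR, adjusted p = 0.0148). This call was lost without sham library 3 (edgeR, adjusted p = 0.0719), without BCP library 2 (0.0894) and without BCP library 3 (0.0607), and also when libraries were scaled by their size alone (0.0578) and in limma on log2(FPKM + 0.1) (0.144).

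Scn2a encodes a channel of unmyelinated axons and of the initial segment of young neurons. Its normalized counts were 245, 249 and 265 CPM in sham and 243, 225 and 245 CPM in BCP libraries. The highest BCP library lay just under the lowest sham library. The log2FC of -0.09 (standard error 0.05, 95% interval -0.19 to 0.01) did not pass the threshold (edgeR, adjusted p = 0.184), and it was -0.05 without BCP library 2 and -0.06 without sham library 3. Scn3a encodes a channel that is abundant in embryonic neurons and, in sensory neurons, returns after nerve injury. Its normalized counts were 61.5, 67.8 and 63.7 CPM in sham and 62.2, 65.8 and 68.4 CPM in BCP libraries, and the groups overlapped. The log2FC was 0.03 (standard error 0.06, 95% interval -0.11 to 0.16; edgeR, adjusted p = 0.815), and these libraries do not exclude a difference within this interval.

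Scn9a encodes the channel that amplifies small depolarizations in nociceptors, and people without it do not feel pain. It was the only tested member that rose. Counts were 303, 318 and 319 in sham and 372, 383 and 338 in BCP libraries. Normalized counts were 23.1, 22.2 and 21.5 CPM in sham and 31.4, 27.3 and 25.6 CPM in BCP libraries. All 3 BCP libraries lay above all 3 sham libraries, and the spread within the BCP group (SD 3.0 CPM) was wider than within the sham group (SD 0.778 CPM). The log2FC was 0.33 (standard error 0.095, 95% interval 0.14 to 0.53; edgeR, adjusted p = 0.0115). BCP library 1 was the highest, and without it the log2FC was 0.26 and the call was lost (edgeR, adjusted p = 0.061). In limma on log2(FPKM + 0.1) the log2FC was 0.36 and did not pass the threshold (adjusted p = 0.113).

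Scn2b encodes a beta subunit that is linked covalently to the alpha subunit and raises its surface level. Its normalized counts were 56.1, 68.8 and 65.9 CPM in sham and 49.7, 50.5 and 53.3 CPM in BCP libraries, so that sham library 1 lay closest to the BCP group. It had the most negative log2FC of the tested members, at -0.31 (standard error 0.08, 95% interval -0.47 to -0.16; edgeR, adjusted p = 0.00362). The log2FC ranged from -0.40 to -0.26 with each library left out in turn, and the call was kept each time. Scn4b encodes a beta subunit whose inner tail contributes to resurgent current, the brief reopening that helps neurons to fire at high rates. Its normalized counts were 411, 432 and 417 CPM in sham and 395, 377 and 359 CPM in BCP libraries, without overlap. The log2FC was -0.16 (standard error 0.05, 95% interval -0.25 to -0.06; edgeR, adjusted p = 0.0135). The call was lost without sham library 2 (edgeR, adjusted p = 0.0629) and without BCP library 3 (0.081), and also when libraries were scaled by their size alone (0.056) and in limma on log2(FPKM + 0.1) (0.112).

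Scn10a and Scn11a encode the tetrodotoxin-resistant channels of small sensory neurons and were barely detected. Scn10a had 10, 4 and 8 counts in sham and 1, 1 and 7 counts in BCP libraries, and the groups overlapped. The ratio of BCP to sham was 0.443, with a 95% counting interval of 0.179 to 1.0. Scn11a had 4, 8 and 4 counts in sham and 0, 1 and 2 counts in BCP libraries. All BCP values were lower, with a ratio of 0.203 and a 95% counting interval of 0.0379 to 0.709. These intervals cover counting error only, and 3 counts, the limit that a count of 0 allows, corresponded to 0.2 to 0.255 CPM per library. Exact permutation tests of CPM, two-sided, gave p = 0.2 for Scn10a and p = 0.1 for Scn11a, the smallest p that 3 against 3 allows. Without a filter on low counts the edgeR test gave adjusted p = 0.31 for Scn10a and 0.102 for Scn11a. Of 10 markers of dorsal root ganglion neurons 7 were tested, of which 2 fell and none rose. The summed level of the 10 was 76.7 to 78.3 CPM in sham and 54.3 to 64.3 CPM in BCP libraries, and Mrgprd was at 0 throughout. Most of the fall in this sum lay in Calca, with 46.4 ± 3.86 CPM in sham and 29.5 ± 3.94 CPM in BCP libraries (SD, n = 3). The next highest marker, Tac1, did not pass the threshold (log2FC 0.13; edgeR, adjusted p = 0.483). Calca, the precursor gene of the peptide CGRP, which motor neurons also express, fell with a log2FC of -0.66 and Trpv1, the capsaicin receptor, with -0.70 (edgeR, adjusted p = 2.69e-05 and 0.0225). The part of these markers in the low counts of Scn10a and Scn11a was not tested.

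The make-up of the alpha subunit transcripts was compared as shares of their summed FPKM, which do not depend on the scaling of a library. Scn8a made up 42.6% ± 0.942 in sham and 40.7% ± 0.371 in BCP libraries (SD, n = 3; exact permutation test, two-sided, p = 0.1). The Scn9a share was 1.73%, 1.6% and 1.53% in sham and 2.42%, 2.27% and 2.06% in BCP libraries, that is, 1.62% ± 0.103 and 2.25% ± 0.18 (SD, n = 3; exact permutation test, two-sided, p = 0.1). Both differences separated the groups, and this exact permutation p is the smallest that the design allows, which adjusted over the 7 alpha subunits gave 0.233. Relative to Scn8a, the Scn9a level was 3.80% ± 0.302 in sham and 5.53% ± 0.399 in BCP libraries. The Scn1a share was 30.5% ± 0.783 and 30.3% ± 0.58, and the groups overlapped, as they did for Scn2a (19.3% ± 0.48 and 20% ± 0.67) and Scn3a (5.91% ± 0.242 and 6.66% ± 0.514). Summed alpha subunit FPKM was 128.3 ± 4.06 in sham and 119.2 ± 3.69 in BCP libraries, and all BCP libraries were lower (exact permutation test, two-sided, p = 0.1).

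**Figure D3:**
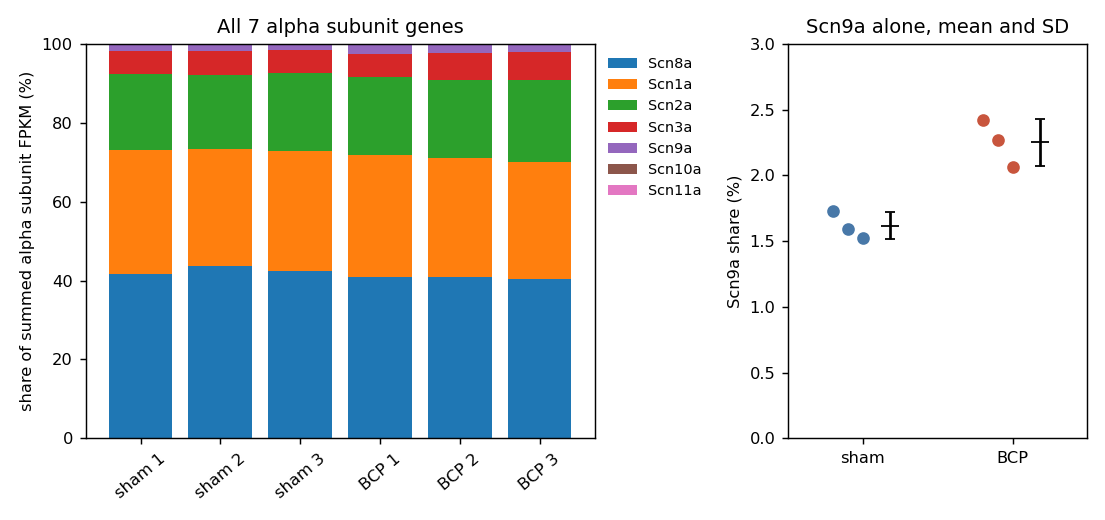
Left, share of each alpha subunit gene in the summed alpha subunit FPKM in each library, in percent. Right, the Scn9a share alone, with mean and SD: 1.53% to 1.73% in sham and 2.06% to 2.42% in BCP libraries. Scn8a, Scn1a and Scn2a make up most of the total in every library.

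Markers of several cell types moved between the groups at the same time. Of 12 neuronal markers 9 fell and none rose, with a median log2FC of -0.19, and their geometric mean was 593 ± 11.6 CPM in sham and 522 ± 25 CPM in BCP libraries. All 8 oligodendrocyte markers fell (median log2FC -0.39, summed level 39344 to 44676 CPM in sham and 28299.6 to 31495 CPM in BCP libraries), and 6 of 7 microglia markers rose (median 1.44, summed level 202 to 264 CPM and 664 to 796 CPM). Of 6 astrocyte markers 1, Gfap, rose and 2 fell (4035 to 4313 CPM and 5834 to 7591 CPM, where the highest sum held 2413 CPM of Aqp4 in BCP library 1, against 353 to 379 CPM in the other libraries, and where Slc1a3, singled out after its values had been seen, had 98 CPM in sham library 1 and 251 to 328 CPM elsewhere), of 4 oligodendrocyte precursor markers 1 fell (378 to 412 CPM and 391 to 437 CPM), and of 5 tested Schwann cell markers 1 rose (97.1 to 101.3 CPM and 93.7 to 99.2 CPM). Of 5 tested markers of excitatory and inhibitory neurons 2 fell, as did 2 of 4 tested markers of motor neurons and 1 of 2 tested muscle genes, and none of these rose. In RNA of whole tissue, fewer cells of a type and less RNA per cell cannot be told apart. Relative to the geometric mean of the neuronal markers, Scn8a stood at 85.8% ± 2.26 in sham and 84.2% ± 1.52 in BCP libraries, Scn1a at 82.4% ± 2.02 and 84.1% ± 1.49, and Scn4b at 70.8% ± 1.24 and 72.1% ± 1.06 (SD, n = 3). For these 3 genes the groups overlapped, and with libraries scaled to the neuronal markers their log2FC values were -0.03, 0.03 and 0.03 (edgeR, adjusted p = 0.698, 0.674 and 0.704). Scn2b had a log2FC of -0.13 on that scale (edgeR, adjusted p = 0.29). Scn9a stood at 3.76% ± 0.201 in sham and 5.37% ± 0.314 in BCP libraries, without overlap, and its log2FC on that scale was 0.52 (edgeR, adjusted p = 0.000443). Scn3a also passed the threshold there, with a log2FC of 0.21 (edgeR, adjusted p = 0.046). That scaling moved the median log2FC of all tested genes by 0.19, to 0.17, so that Scn3a stood near this median and Scn9a above it. It also changed the split of calls from 2352 higher and 1805 lower to 4572 higher and 212 lower, whereas library size alone gave 2673 and 1262 and limma on FPKM values 2443 and 966. The part of these markers in the falls of the sodium channel genes was not tested.

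**Figure D4:**
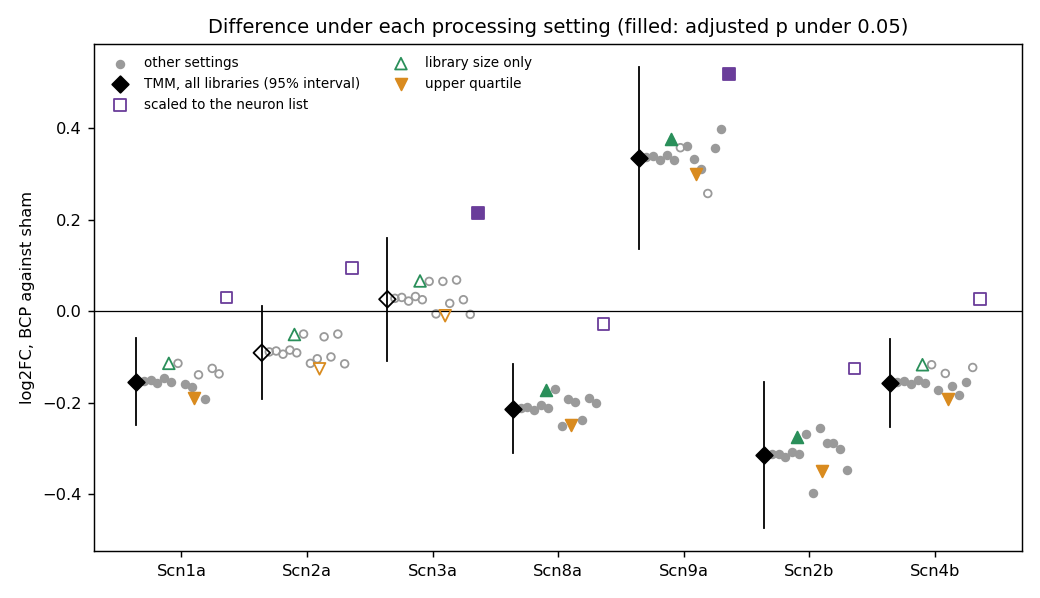
log2FC of the 7 tested genes, BCP against sham, under each processing setting; filled symbols have an adjusted p under 0.05, and the black line is the 95% interval of the TMM fit. Values of Scn8a, Scn2b, Scn1a and Scn4b sit below 0, apart from those of Scn1a and Scn4b (0.03 for both) under scaling to the neuron list, and those of Scn9a sit above 0 throughout.

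Partner genes of the channels were examined as 3 lists. In the list of other sodium channel family genes 2 of 6 fell (33.3%, against 12.1% of all tested genes) and none rose. Nalcn, the gene of a sodium leak channel, fell with a log2FC of -0.15 (edgeR, adjusted p = 0.0288). Scn3b, a beta subunit gene, had a log2FC of -0.10 (edgeR, adjusted p = 0.377).

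In the list of genes of the axon initial segment and the node of Ranvier, where the channels are anchored, 12 of 17 tested genes fell (70.6%, against 12.1% of all tested genes) and none rose, with a median log2FC of -0.25. Nfasc, the gene of the adhesion molecule neurofascin, which glia also express, fell from 1464 ± 47.8 to 1086 ± 33.6 CPM (SD, n = 3; log2FC -0.43; edgeR, adjusted p = 1.07e-07). Cntn1, the gene of the axonal adhesion molecule contactin, fell with a log2FC of -0.39, and Bcan, the gene of the matrix proteoglycan brevican, with -0.50 (edgeR, adjusted p = 1.07e-06 and 1.29e-07). Ank3, which encodes ankyrin-G, the scaffold that binds the channels, was singled out after its values had been seen and fell with a log2FC of -0.37 (edgeR, adjusted p = 3.2e-06). Sptan1, a spectrin gene, had a log2FC of -0.11 (edgeR, adjusted p = 0.0882). Oligodendrocytes or astrocytes express several of these genes as well.

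In the list of cytosolic regulators and of proteases that cleave beta subunits 3 of 14 genes fell (21.4%, against 12.1% of all tested genes) and 2 rose (14.3%, against 15.8%). Rest, the gene of the repressor named above, of which Scn2a is a classical target, rose from 22.2 ± 1.18 to 30.4 ± 1.87 CPM (SD, n = 3; log2FC 0.46; edgeR, adjusted p = 0.000599). Scn2a itself did not pass the threshold (edgeR, adjusted p = 0.184). A link between Rest and the sodium channel genes was not tested, nor was the cell type in which Rest rose. The beta-secretase genes Bace1 and Bace2 fell with a log2FC of -0.30 and -0.34 (edgeR, adjusted p = 0.000313 and 0.0227). Over the 3 lists 17 of 37 genes fell (45.9%) and 2 rose (5.41%). With libraries scaled to the neuronal markers 6 of the 37 fell, against 212 of all 14908 tested genes, and 7 rose, against 4572.

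**Figure D5:**
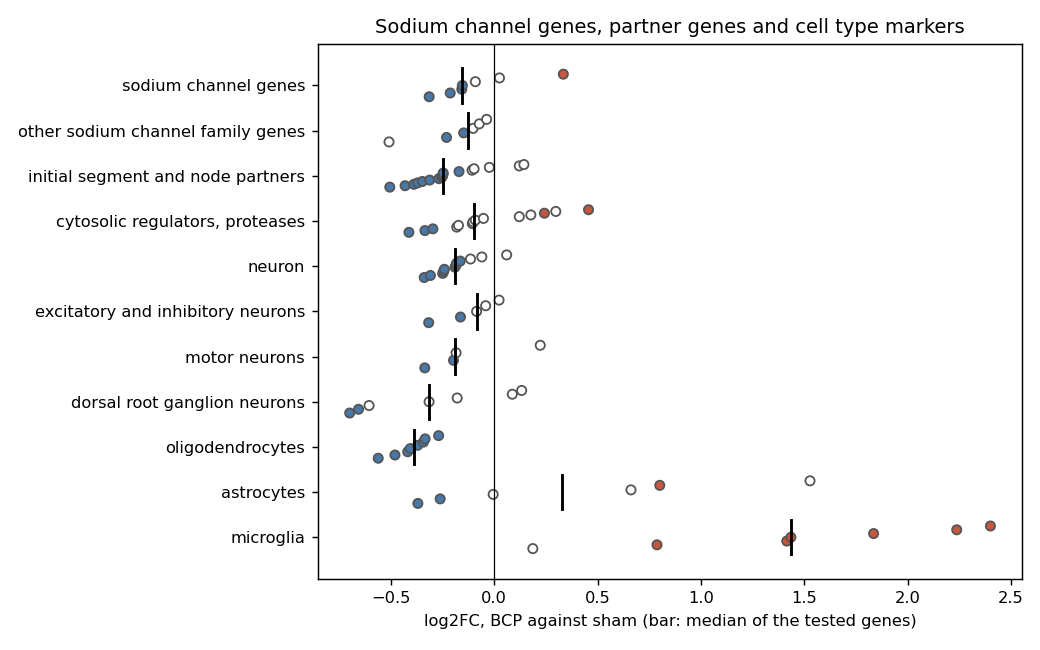
log2FC, BCP against sham, of each tested gene (dots) by list; red and blue dots have an adjusted p under 0.05 and are higher or lower in BCP rats, open dots did not pass, and the black bar is the median of the list. Sodium channel genes (median -0.15), node and initial segment genes (-0.25) and neuronal markers (-0.19) lie mostly to the left of 0 on this scale, which scaling to the neuronal markers moves by 0.19 to the right, and microglia markers (1.44) to the right.

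Transcripts of lncRNAs at the same loci gave a further readout. In all, 16 lncRNA transcripts overlapped a member or lay within 10 kb of it, at 7 of the 9 genes, and 10 of them were tested. None of these 10 was called by edgeR, against 1.97% of all 12157 tested transcripts. An unadjusted p under 0.05 in edgeR was found for 1619 of the 12157 and for 1 of these 10. That transcript, NONRATT026313.2, lies on chromosome 7 (142687113 to 142688624), 2999 bases beyond the end of Scn8a. It had 480, 639 and 606 counts in sham and 414, 419 and 399 counts in BCP libraries, with a log2FC of -0.33 (standard error 0.10; edgeR, adjusted p = 0.177). The assembled transcripts MSTRG.19420.2 and MSTRG.19420.3 overlap Scn9a, and the use of strand in counting is not stated, so their reads and those of Scn9a may not be separable. Singly, in the order named, they had 2, 2 and 191 counts and 1044, 1077 and 654 counts in sham libraries. In BCP libraries they had 591, 3 and 6 counts and 401, 995 and 689 counts, so the split between them differed most in BCP library 1. Their summed counts were 1046, 1079 and 845 in sham and 992, 998 and 695 in BCP libraries, and these sums overlapped between the groups (exact permutation test of CPM, two-sided, p = 1.0).

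The genes whose normalized counts followed each member most closely over the 6 libraries were listed as a description. Pearson's coefficient of log2 CPM was highest for P2ry1 and Rasal1 with Scn1a (0.996 for both), Lrp8 with Scn2a (0.998), Chp1 and Atp1b1 with Scn8a (0.998 and 0.997), Acvr1b with Scn2b (0.996), Hpn with Scn4b (0.998) and Ccdc79 with Scn9a (0.993). All points share the same 6 libraries, and these genes were picked as the closest of 14908, so no p-value is given. For Scn3a the highest was Pcnxl3 (0.995).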

How the data were processed

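Total RNA of 3 sham and 3 BCP libraries was depleted of ribosomal RNA and sequenced strand-specifically on an Illumina platform. The authors aligned reads to Rnor_6.0 with HISAT2 2.0.4 and assembled transcripts with StringTie 1.3.0. They deposited counts per gene and per lncRNA transcript, and FPKM values, which they had divided by transcript length and library total. The counting program, its use of strand and its handling of reads with several locations are not given in the sources used here. Deposited columns with the authors' own fold changes and p-values were not used.

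The test across all genes used the counts in edgeR 4.0.16, run in R 4.3.3 (quasi-likelihood test, robust fit, default filter on low counts, TMM normalization, condition as the only term), and p-values were adjusted over all 14908 tested genes by the Benjamini-Hochberg method. lncRNA transcripts were fitted likewise in their own table. A standard error was the log2FC divided by the square root of F. TMM factors were 0.982 to 1.02, and the common biological coefficient of variation was 7.72%. FPKM values were used for levels between genes and for shares, which were compared by exact permutation tests, two-sided. With 3 against 3 libraries the smallest p is 0.1. The procedure was also run on counts simulated from the means and dispersions of these libraries. That run was a check of the code, and no result here rests on it. Alternatives were other normalizations, filters and tools (limma 3.58.1 on FPKM, DESeq2 1.42.0), a replicate block and leaving out each library.

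The members and all gene lists were chosen with earlier results of these data known. From each list the 3 genes with the highest mean CPM and the 3 with the smallest p in each direction could be named, and for each tested member the 2 genes with the highest correlation of log2(CPM + 0.5). Promoters were taken from RefSeq (GRCr8), whose coordinates are not those of the deposited table. Some genes of the lists are counted but not reported singly here.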

Additional observations from a re-analysis of the deposited data

How the results depend on the processing

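Of 207 values under alternative settings 169 kept their direction and their side of the threshold, or, for counts, stayed within 1.5 times. Shares of alpha subunits are not among them, since their permutation p cannot pass 0.05. With libraries scaled to the neuronal markers the log2FC was 0.03 for Scn1a, 0.095 for Scn2a, 0.21 for Scn3a, -0.028 for Scn8a, -0.125 for Scn2b and 0.027 for Scn4b, so that 0 sodium channel genes were lower and 2 higher, 6 partner genes were lower and 7 higher, and 4572 genes in all were higher and 212 lower. This setting sets the neuronal markers, most of which fell, to no change. With library size only, Scn1a (-0.11) and Scn4b (-0.12) no longer passed, which left 2 sodium channel genes lower, and 6 partner genes were higher. In limma on FPKM values Scn1a (-0.11), Scn4b (-0.12) and Scn9a (0.36) did not pass, which left 2 members lower and 0 higher, and 966 genes in all were lower. With upper-quartile normalization Scn3a was at -0.01. With the 2-fold requirement 0 members passed, 946 genes were higher and 16 lower. For these settings the cause was not tested.

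With each library left out in turn, the log2FC ranged from -0.191 to -0.125 for Scn1a, from -0.115 to -0.05 for Scn2a, from -0.007 to 0.068 for Scn3a (-0.006 without sham library 1 and -0.007 without BCP library 3), from 0.26 to 0.40 for Scn9a and from -0.18 to -0.12 for Scn4b. Members called lower numbered 2 to 4 (2 without BCP library 3), members called higher 0 to 1 (0 without BCP library 1), and partner genes called higher 1 to 4 (1 without sham library 2 and 4 without BCP library 2). The difference in the Scn1a share ranged from -0.546 to 0.233 percentage points (0.233 without sham library 1 and 0.091 without BCP library 3).

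The groups share replicate numbers, but deviations of libraries with the same number correlated at -0.11, 0.05 and -0.04. Those of libraries with different numbers correlated at -0.13 to 0.15. These values gave no sign of pairing, but with 3 libraries a group they cannot exclude it. With a replicate block 4 members were lower and 1 higher, 2217 genes were higher and 1597 lower, and no call of a member changed. Depth limits Scn10a and Scn11a, with 22 and 16 counts over the sham libraries and 9 and 3 over the BCP libraries.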

Other observations

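At the Scn9a locus, 2 assembled lncRNA transcripts, MSTRG.19421.1 and MSTRG.19421.2, had counts in different libraries. They lie 7122 and 7124 bases from the gene at higher coordinates, which is the side of its start, since Scn9a is on the - strand. MSTRG.19421.1 had 575, 0 and 171 counts in sham and 0, 0 and 559 in BCP libraries, and MSTRG.19421.2 had 1, 587 and 511 counts in sham and 580, 586 and 0 in BCP libraries. Their sum was 576, 587 and 682 counts in sham and 580, 586 and 559 in BCP libraries, which overlapped (exact permutation test of CPM, two-sided, p = 0.3). Counts of single assembled isoforms at this locus therefore varied more between libraries of a group than their sum.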
